A study of Mus musculus with 6 samples.

Results

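Lamina-associated domains (LADs) are long stretches of chromatin that contact the nuclear lamina, the filament mesh under the inner nuclear membrane. The 409 stretches described here lay in LADs of the LmnA RNAi map and of the LmnB1 RNAi map, but in no LAD of the LmnC RNAi map. They were found by intersecting the LADs of the LmnA and LmnB1 RNAi maps on chromosomes 1 to 19 and subtracting the LADs of the LmnC RNAi map. Stretches of at least 50 kb with at least 20 measured fragments were kept. They are 409 of 5063 stretches of a single LAD state that met the same limits, and they hold 68.5 Mb, or 2.86% of the autosomal fragment length. "Missing" here means absent from the LmnC RNAi list while present in the other lists. Cells that received no shRNA are not analysed here, so no stretch is shown to have left the lamina.

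DamID maps were made in fibroblasts cultured from mouse embryos (MEFs), of the C57BL/6 strain and wild-type genotype. All cells carried a lentiviral shRNA, were selected with puromycin at 2 µg/mL, and afterwards received a second lentivirus for Dam alone or for a Dam fusion. LmnC RNAi cells had 1 Dam-LmnB1 and 1 Dam-only library, LmnA RNAi cells had 1 Dam-LmnB1 and 1 Dam-only library, and LmnB1 RNAi cells had 1 Dam-LmnA and 1 Dam-only library. The 6 libraries gave 3 maps without replicates, so no test across samples was possible and every difference below is a difference between these maps. The LmnC and LmnA RNAi maps share their fusion, whereas in any comparison with the LmnB1 RNAi map the targeted lamin and the fusion cannot be told apart. Only LmnA and LmnC are named as shRNA targets in the treatment protocol, and the LmnB1 target is taken from the description labels. The knockdown in each population was not checked here, because the 6 libraries hold no measurement of RNA or protein.

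Alternative splicing of Lmna gives lamin A and lamin C, which have a common rod domain and different tails, and Lmnb1 encodes lamin B1, which keeps a farnesyl anchor. A-type lamins occur both at the lamina and in the nuclear interior, and in fibroblasts LADs are mostly gene-poor, weakly transcribed and late replicating. In DamID the bacterial adenine methyltransferase Dam, fused to a lamin, methylates GATC sites in DNA that comes near the lamina, and methylated GATC fragments are amplified and sequenced. Dam alone marks accessible DNA and is the background of each ratio. The deposited value of a GATC fragment is the log2 ratio of fusion reads over Dam-only reads, shifted by a constant per map. Equal reads give this constant, which was 0.21 in the LmnC RNAi map, -0.34 in the LmnA RNAi map and -0.15 in the LmnB1 RNAi map. A value above the constant of its map, rather than above 0, means more fusion reads. A stretch was given the mean over its fragments, weighted by fragment length. Its standard error (SE) over fragments measures scatter along the stretch, not variation between cell populations.

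The members held 167146 fragments, from 110 to 3415 each with a median of 296, so the limit of 20 fragments removed 0 stretches. The median SE of a member's mean was 0.26 in the LmnC RNAi map, 0.28 in the LmnA RNAi map and 0.25 in the LmnB1 RNAi map. Total reads per library are unknown because only ratios were deposited. The ratio was formed with a very small number added to the reads, so a fragment with 0 reads in 1 of its libraries takes an extreme value. For this reason means without such fragments are given beside the main ones.

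Most stretches had signal below 0 after LmnC RNAi and above 0 after LmnA RNAi. After LmnB1 RNAi the share above 0 was near that of all autosomal bins. The median signal of the 409 stretches was -0.88 ± 0.65 (SD over stretches) after LmnC RNAi, against 0.79 ± 0.65 after LmnA RNAi and 0.11 ± 0.55 after LmnB1 RNAi. It ranged from -3.05 to 1.49 after LmnC RNAi, from -2.0 to 2.83 after LmnA RNAi and from -1.45 to 1.74 after LmnB1 RNAi. The ranges of the maps thus overlapped widely. After LmnC RNAi the median of the members lay below that of stretches in LADs of all maps (1.39) and above that of stretches in no LAD (-3.08). A mean above 0 was found in 37 stretches (9.05%) after LmnC RNAi, against 374 (91.4%) after LmnA RNAi and 234 (57.2%) after LmnB1 RNAi. Of all autosomal 100 kb bins, 50.7% were above 0 after LmnC RNAi, against 65.1% after LmnA RNAi and 56.6% after LmnB1 RNAi.

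The median difference within a stretch was -1.64 for LmnC minus LmnA RNAi and -1.06 for LmnC minus LmnB1 RNAi. The stretches were chosen from LAD lists called on these same values, so both are descriptions of the choice. Signal was lower after LmnC RNAi by more than 0.5 in 396 stretches relative to LmnA RNAi (75.8% of all autosomal 100 kb bins met this) and in 356 relative to LmnB1 RNAi (50.5% of bins). Both held in 350 stretches, 85.6% of the members, beside 43.5% of bins, and with a step of 1 in 213 stretches, beside 16.4% of bins. The whole LmnC RNAi map therefore lies low on this scale: its median autosomal bin was 0.06, against 1.21 after LmnA RNAi and 0.53 after LmnB1 RNAi. With each map centred on its median bin, the median differences were -0.50 for LmnC minus LmnA RNAi and -0.59 for LmnC minus LmnB1 RNAi. After centring, signal was lower by more than 0.5 in 203 stretches relative to LmnA RNAi (15.6% of bins) and in 232 relative to LmnB1 RNAi (24.3% of bins). Both held in 146 stretches, beside 8.27% of bins, and LmnC RNAi was the lowest by any amount in 319, beside 27.6% of bins. With the maps quantile normalized, 111 stretches were lower than both by more than 0.5, beside 5.96% of bins. Most of the uncentred LmnC minus LmnA RNAi difference is thus shared with the autosomes as a whole. For LmnC minus LmnB1 RNAi a smaller part is shared.

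The difference was smaller when fragments with reads in 1 library only were left out. Without them the median signal was -0.47 after LmnC RNAi, against 0.09 after LmnA RNAi and -0.15 after LmnB1 RNAi. The median differences were then -0.55 for LmnC minus LmnA RNAi and -0.31 for LmnC minus LmnB1 RNAi. Fragments at the constant of a map stayed in these means and draw them toward that constant. In the members they were 30.9% of fragments after LmnC RNAi, 30.4% after LmnA RNAi and 31.1% after LmnB1 RNAi. Their part in the smaller difference was not tested. The direction was kept in most stretches: LmnC RNAi signal was below both other maps by any amount in 400 stretches with all fragments (75.6% of bins) and in 372 without single-library fragments (57.5% of bins). Without these fragments LmnC RNAi was lower by more than 0.5 in 239 stretches relative to LmnA RNAi (22.4% of bins) and in 58 relative to LmnB1 RNAi (10.4% of bins). A difference of more than 0.5 from both was found in 49 stretches, beside 4.67% of bins.

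**Figure D1:**
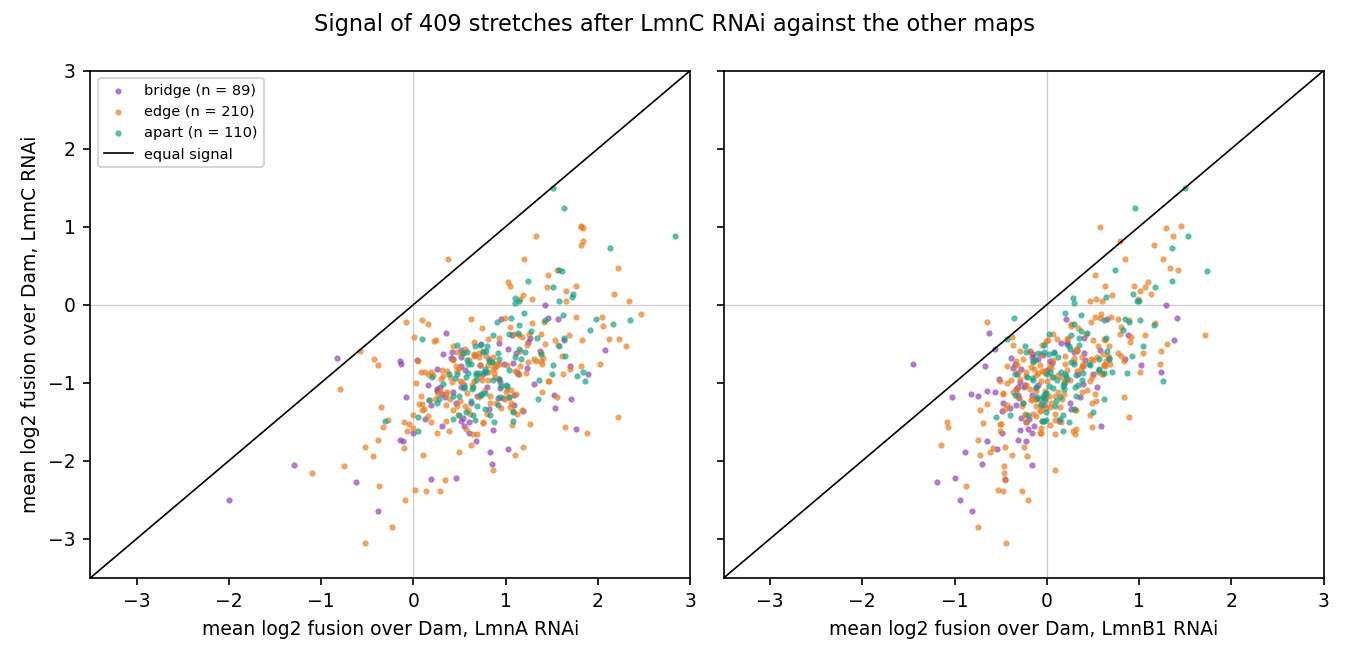
Mean log2 fusion over Dam signal of each of the 409 stretches after LmnC RNAi (vertical axis) against LmnA RNAi (left, horizontal axis) and LmnB1 RNAi (right, horizontal axis), coloured by whether both ends (bridge), 1 end (edge) or neither (apart) touch a LmnC RNAi LAD. Each point is 1 stretch and the black line marks equal signal. LmnC RNAi is below LmnA RNAi in 407 stretches, below LmnB1 RNAi in 402 and below both in 400. Of autosomal 100 kb bins, 75.6% are below both. With each map centred on its median autosomal 100 kb bin, LmnC RNAi is below both in 319 stretches, beside 27.6% of these bins. Points of the different positions are intermingled.

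The scatter of members against equal signal shows the same order for most stretches, with a spread of similar size in both panels. Stretches that were high in one map tended to be high in the others. Pearson's r over the 409 stretches was 0.568 between the LmnC and LmnA RNAi maps, 0.671 between the LmnC and LmnB1 RNAi maps and 0.576 between the LmnA and LmnB1 RNAi maps. These points share libraries and a fragment set within each map, so the correlations are descriptions along the genome.

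Ranks within each map, which do not depend on the offset between maps, placed the members near the limit between LAD and inter-LAD sequence. The median member ranked at percentile 40.1 of autosomal 100 kb bins after LmnC RNAi, 44.2 after LmnA RNAi and 44.8 after LmnB1 RNAi. LADs cover 57.7% of autosomal fragment length after LmnC RNAi, 66.8% after LmnA RNAi and 58.6% after LmnB1 RNAi. A percentile above 42.3 after LmnC RNAi, 33.2 after LmnA RNAi or 41.4 after LmnB1 RNAi therefore falls within the share that the LADs of that map cover. By rank the median member sat just below that point after LmnC RNAi and above it in the other maps. The LmnC RNAi mean of 133 stretches (32.5%) ranked within the LAD share of the LmnC RNAi map although the list gives no LAD there. The corresponding numbers were 388 stretches (94.9%) after LmnA RNAi and 290 (70.9%) after LmnB1 RNAi. The percentile after LmnC RNAi was below those of both other maps in 278 stretches (68.0%), beside 30.3% of bins. The label of the stretches follows the deposited lists, and for about 1 stretch in 3 the rank of its mean does not separate it from LAD sequence of the same map.

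**Figure D2:**
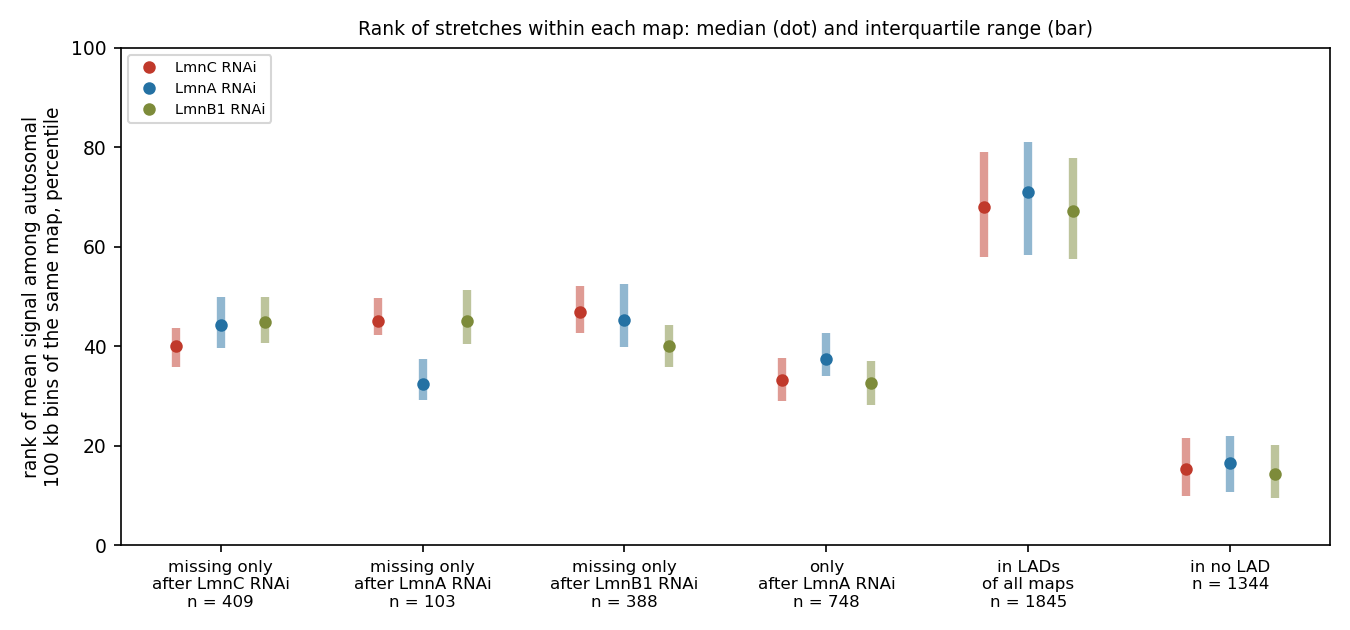
Percentile rank of mean signal among autosomal 100 kb bins of the same map (vertical axis) for stretches of each LAD state (horizontal axis), with dots for medians and bars for interquartile ranges in the LmnC, LmnA and LmnB1 RNAi maps. Members missing only after LmnC RNAi have medians of 40.1, 44.2 and 44.8, between stretches in LADs of all maps and stretches in no LAD.

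In the plot of ranks by LAD state, stretches in LADs of all maps had median ranks of 67.9 after LmnC RNAi, 71.0 after LmnA RNAi and 67.1 after LmnB1 RNAi. Stretches in no LAD had 15.4, 16.5 and 14.4 in the same order of maps. The members thus took a middle position in every map, including those that list them as LADs. The mirrored class, 388 stretches (57.7 Mb) missing only after LmnB1 RNAi, had median ranks of 46.9 after LmnC RNAi, 45.3 after LmnA RNAi and 40.1 after LmnB1 RNAi. Its rank in the map that lacks it was the same as that of the members in the LmnC RNAi map to within 0.1 percentile points. The 103 stretches missing only after LmnA RNAi had 45.2, 32.5 and 45.1. An intermediate rank was therefore found in each class that 1 list lacks, and is not particular to LmnC RNAi.

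The position of the members relative to the LADs that LmnC RNAi cells do have was of 3 kinds. In 210 stretches (32.6 Mb) 1 end touched a LmnC RNAi LAD, so that the LAD of the other maps reached farther. In 89 stretches (9.79 Mb) both ends touched one, so that a LAD of the other maps was split after LmnC RNAi. The remaining 110 (26.1 Mb) touched none. Stretches apart from LmnC RNAi LADs were the longest, with a median of 178 kb, against 104 kb at an edge and 83.2 kb between a pair of LADs. The deposited LADs are at least 100 kb long, which limits how short a stretch can be when it stands apart, and only 3 of these were under 100 kb.

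Levels differed little by position. The median signal after LmnC RNAi was -1.05 between LADs, -0.88 at an edge and -0.83 apart, with LmnA RNAi medians of 0.67, 0.76 and 0.89 and LmnB1 RNAi medians of -0.17, 0.12 and 0.23 in the same order of positions. Stretches between LADs were thus somewhat lower than the others in each of the maps. The median difference of LmnC minus LmnA RNAi was -1.72 between LADs, -1.66 at an edge and -1.62 apart. Without single-library fragments the order was the opposite, with -0.49 between LADs, -0.55 at an edge and -0.58 apart. No order of the positions by the LmnC minus LmnA RNAi difference held in both forms of the mean, and its SD over all members was 0.61 with all fragments. For LmnC minus LmnB1 RNAi the medians were -0.99 between LADs, -1.07 at an edge and -1.06 apart. Without single-library fragments they were -0.26, -0.31 and -0.34. This difference was thus smallest between LADs in both forms, beside an SD over all members of 0.50 with all fragments.

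A subset of the stretches apart belonged to whole LADs without a counterpart. For 72 stretches (18.2 Mb), neither the LmnA RNAi LAD nor the LmnB1 RNAi LAD that held the stretch contained any LmnC RNAi LAD sequence. The members lay in 351 LADs of the LmnA RNAi map and 367 of the LmnB1 RNAi map, and the LAD that held a member had a median length of 975 kb in the LmnA RNAi map and 649 kb in the LmnB1 RNAi map. Most members were therefore a part of a longer LAD. The stretches apart were a median of 222 kb from the nearest LmnC RNAi LAD, and the most distant was 2290 kb away.

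Signal across the ends of the stretches had a different form at the ends that touch a LmnC RNAi LAD and at the outer ends. Of the 818 ends, 388 lay at a border of a LmnC RNAi LAD. Over these, the LmnC RNAi mean was -1.44 in the first 10 kb of the stretch and 1.28 in the last 10 kb of the LAD. At the same ends the LmnA RNAi mean was 0.65 inside the stretch and 1.93 in the LAD, and the LmnB1 RNAi mean was 0.01 inside and 1.13 in the LAD. The border was called on the LmnC RNAi signal, which fixes its step there. The LmnA and LmnB1 RNAi signals were also lower on the side of the stretch, which is LAD sequence in both of those maps. Over the first 50 kb inside these 388 ends, the LmnC RNAi mean rose from -1.44 to -0.92. The LmnA RNAi mean was 0.36 at 10 to 20 kb and 0.76 at 40 to 50 kb. The LmnB1 RNAi mean was -0.36 and 0.13 in the same windows.

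In members of 200 kb or more, which have 68 such ends, the signal varied over the 200 kb inside the border without a steady course. Over the 10 kb windows from 0 to 200 kb inside, the LmnC RNAi mean lay between -1.74 and -0.60, against 1.06 ± 0.14 (SE over ends) in the last 10 kb of the LAD. The LmnA RNAi mean lay between 0.29 and 1.17, against 1.84 ± 0.14 in the LAD, and the LmnB1 RNAi mean between -0.75 and 0.38, against 1.05 ± 0.11. Every window inside was thus below the last window of the LAD in each map. Low windows occurred near the border and also farther inside. At 20 to 30 kb the means were -1.47 ± 0.15 after LmnC RNAi, 0.29 ± 0.18 after LmnA RNAi and -0.36 ± 0.16 after LmnB1 RNAi. At 140 to 150 kb they were -1.17 ± 0.19 after LmnC RNAi, 0.48 ± 0.21 after LmnA RNAi and -0.45 ± 0.16 after LmnB1 RNAi.

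**Figure D3:**
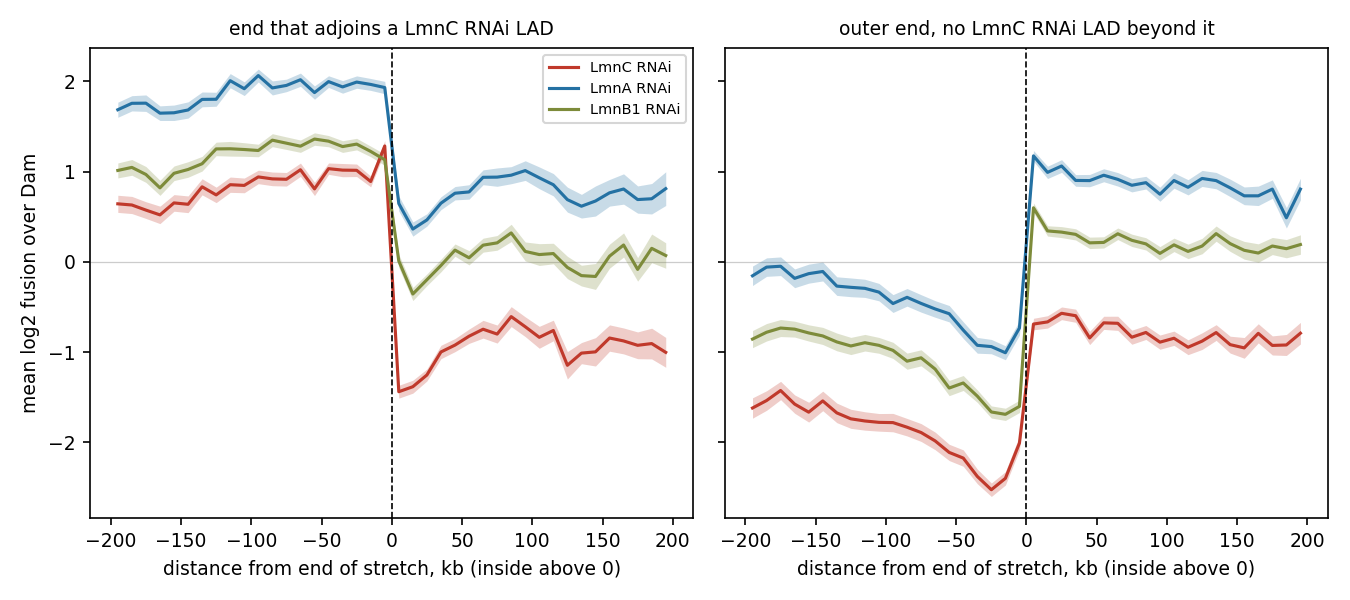
Mean log2 fusion over Dam signal in 10 kb windows (vertical axis) by distance from the ends of the 409 stretches in kb (horizontal axis, inside the stretch above 0), at the 388 ends at a LmnC RNAi LAD (left) and the 430 other ends (right), with 1 line per RNAi map and shading for the SE over ends. All 3 lines drop on entering a stretch from a LmnC RNAi LAD and all 3 lie higher inside than outside at the other ends.

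As the profiles by distance from the ends show, the outer ends carried a step in every map. There are 430 outer ends, where a LAD of the LmnA or the LmnB1 RNAi map stops and LmnC RNAi cells have no LAD on either side of the end. The LmnC RNAi mean was -0.69 in the first 10 kb inside and -2.01 in the first 10 kb outside. LmnA RNAi had 1.17 inside and -0.73 outside, and LmnB1 RNAi had 0.60 inside and -1.60 outside. These ends were placed by the other lists, and the LmnC RNAi values did not decide which side counts as inside.

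Over 50 kb on each side, 401 outer ends had sequence outside LmnC RNAi LADs on both sides. The LmnC RNAi signal was higher inside the stretch at 380 of them (94.8%), with medians of -0.76 inside and -2.23 outside. Without single-library fragments the LmnC RNAi signal was higher inside at 387 ends (96.5%). The median step was 1.58 after LmnC RNAi, against 1.94 after LmnA RNAi and 1.89 after LmnB1 RNAi. The ends were placed by the LAD calls of the LmnA and LmnB1 RNAi maps, which favours a larger step in those maps, so the sizes are not compared. No share of other places in the genome is set beside the count, since the direction of each end comes from lists that resemble the LmnC RNAi list. The same direction at most ends was found in the mirrored classes, in the map whose list lacks the stretch. Stretches missing only after LmnB1 RNAi had a higher LmnB1 RNAi signal inside at 383 of 400 ends (95.8%), and those missing only after LmnA RNAi a higher LmnA RNAi signal inside at 69 of 75 ends (92.0%). The ends of neighbouring stretches share a map and are not independent.

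The LmnA and LmnB1 RNAi lists did not end their LADs at one place at most of these ends. At 117 of the 430 outer ends (27.2%) their borders lay within 10 kb of each other, and the median distance was 46.6 kb.

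Within the stretches the order of the maps was also counted window by window. The maps were not centred, so the low level of the whole LmnC RNAi map enters these counts. The members were cut into 6651 windows of 10 kb, and LmnC RNAi was lower than both other maps in 74.0% of them, beside 54.0% of all autosomal windows. The median member had this order in 75% of its windows. It held in every window of 37 members and in most windows of 369. How much of the mean difference a few windows carry was not tested.

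The 8 longest members were all lower after LmnC RNAi than in both other maps by more than 0.5. The maps were not centred here, and 43.5% of autosomal 100 kb bins met this step. The longest is chr12:95289241-96700928 in mm9 (1.41 Mb, at an edge), with -0.99 ± 0.10 (SE over fragments) after LmnC RNAi, against 0.52 ± 0.10 after LmnA RNAi and 0.20 ± 0.08 after LmnB1 RNAi. LmnC RNAi was lower than both in 65.2% of its 10 kb windows, so that more than 3 in 10 windows departed from the order of the means. Next came chr5:11959749-13104612 (1.14 Mb), with -0.67 ± 0.10 after LmnC RNAi, against 0.86 ± 0.10 after LmnA RNAi and 0.38 ± 0.09 after LmnB1 RNAi. These longest members had smaller LmnC RNAi deficits than several shorter ones. The longest stretch apart from all LmnC RNAi LADs, chr13:102539376-103334961 (796 kb), had -1.47 ± 0.12 after LmnC RNAi, against 0.43 ± 0.11 after LmnA RNAi and 0.14 ± 0.10 after LmnB1 RNAi. LmnC RNAi was lower than both in 87.3% of its windows.

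The next 5 had levels of the same kind. The stretch chr18:68489131-69221093 (732 kb) had -1.48 ± 0.12 after LmnC RNAi, against 0.67 ± 0.11 after LmnA RNAi and -0.01 ± 0.10 after LmnB1 RNAi. In chr10:37525126-38239255 (714 kb) the signal was -1.40 ± 0.13 after LmnC RNAi, against 1.13 ± 0.13 after LmnA RNAi and -0.15 ± 0.11 after LmnB1 RNAi. In both, the LmnB1 RNAi mean lay near 0. It ranked at percentiles 43.2 and 41.6, just above the 41.4 beyond which the LAD share of that map lies. The stretch chr15:56712660-57381801 (669 kb) had -0.83 ± 0.13 after LmnC RNAi, against 0.77 ± 0.13 after LmnA RNAi and 0.56 ± 0.12 after LmnB1 RNAi. In chr5:81800783-82422898 (622 kb) the values were -1.32 ± 0.13 after LmnC RNAi, against 0.95 ± 0.13 after LmnA RNAi and -0.01 ± 0.11 after LmnB1 RNAi. In chr3:56162450-56743058 (581 kb) they were -0.89 ± 0.13 after LmnC RNAi, against 0.38 ± 0.13 after LmnA RNAi and 0.00 ± 0.11 after LmnB1 RNAi. Without single-library fragments the LmnC RNAi value stayed the lowest in all 8, from -0.75 to -0.44.

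**Figure D4:**
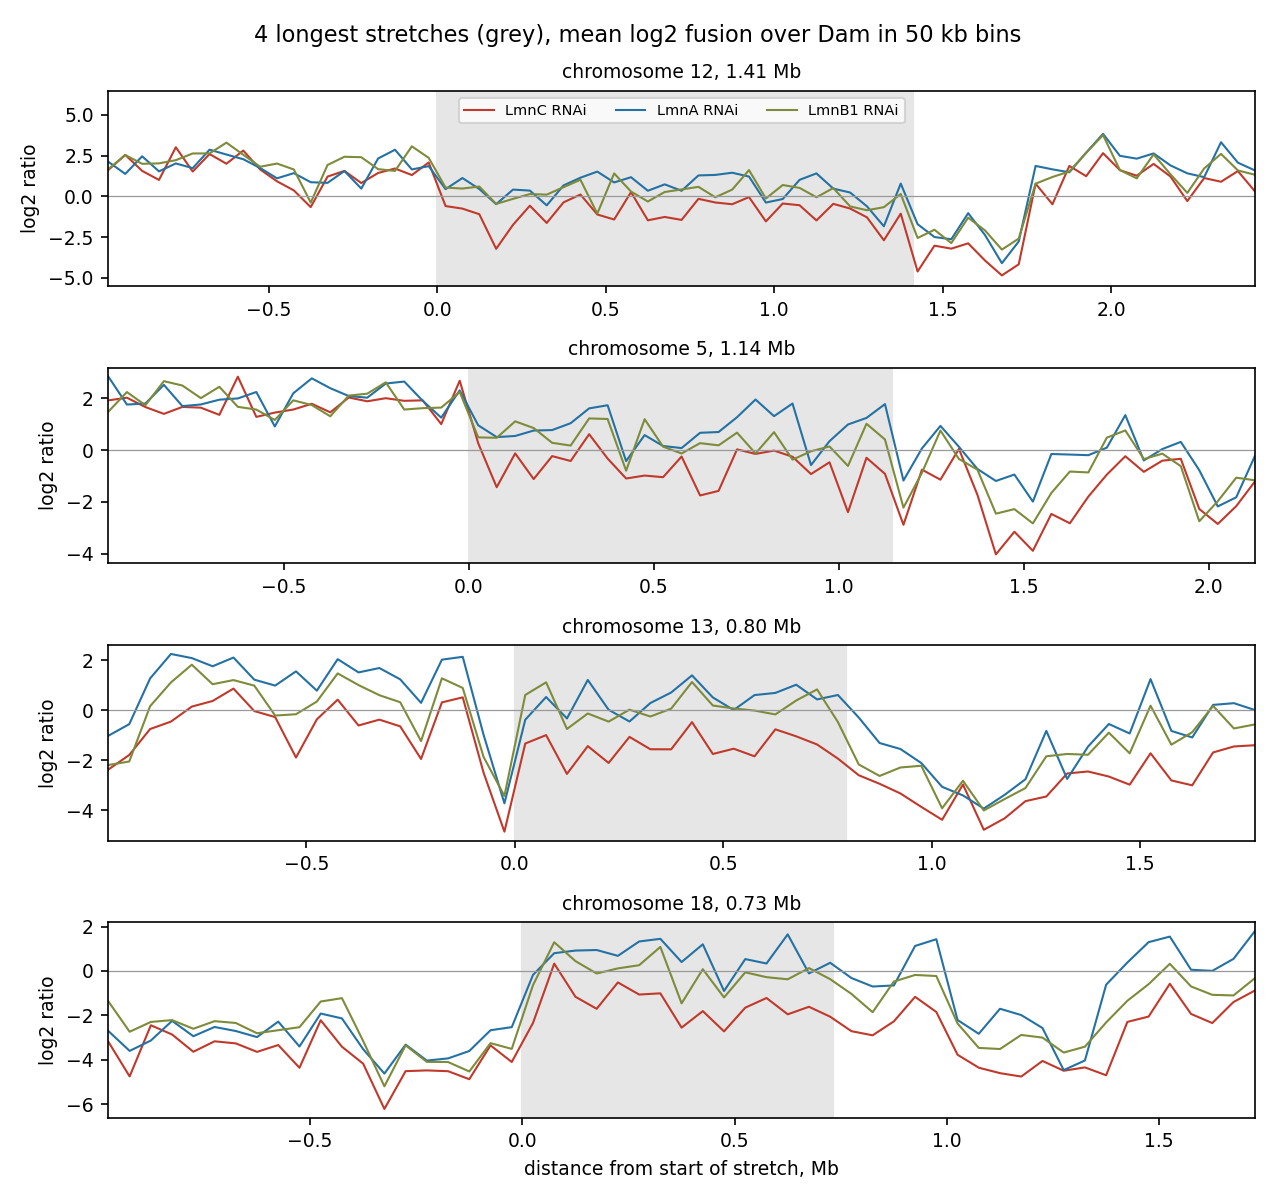
Mean log2 fusion over Dam signal in 50 kb bins (vertical axis) along the 4 longest stretches and 1 Mb on each side (horizontal axis, distance from the start of the stretch in Mb), with 1 line per RNAi map. The grey area is the stretch, where the LmnC RNAi line runs mostly below the LmnA and LmnB1 RNAi lines, while the lines follow the same rises and falls around it.

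The tracks of the 4 longest stretches show that the maps shared most of their local course inside and outside the stretch. The longest stretch between a pair of LmnC RNAi LADs was chr15:8569659-9082971 (513 kb). Its signal was -1.05 ± 0.22 after LmnC RNAi, against 0.29 ± 0.21 after LmnA RNAi and -0.32 ± 0.21 after LmnB1 RNAi. LmnC RNAi was lower than both in 64.7% of its windows.

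Among members of at least 200 fragments, the difference that held against both maps was ranked by the smaller of the deficits to LmnA and to LmnB1 RNAi. The largest was in chr2:116616192-116702892 (86.7 kb), with -2.50 ± 0.41 after LmnC RNAi, against -0.09 ± 0.33 after LmnA RNAi and -0.20 ± 0.32 after LmnB1 RNAi. In this stretch the other maps were below 0 as well. In chr8:33963019-34065736 (103 kb) the signal was -1.19 ± 0.35 after LmnC RNAi, against 1.04 ± 0.31 after LmnA RNAi and 0.84 ± 0.28 after LmnB1 RNAi. Without single-library fragments it was -0.22 after LmnC RNAi, against 0.08 after LmnA RNAi and 0.14 after LmnB1 RNAi, a much smaller difference. The stretch chr15:35362177-35686108 (324 kb) had -1.38 ± 0.18 after LmnC RNAi, against 1.08 ± 0.16 after LmnA RNAi and 0.50 ± 0.16 after LmnB1 RNAi. In chr12:9415732-9592067 (176 kb) the signal was -1.65 ± 0.28 after LmnC RNAi, against 0.69 ± 0.28 after LmnA RNAi and 0.31 ± 0.22 after LmnB1 RNAi. LmnC RNAi was lower than both maps in every 10 kb window of chr16:65872980-66032617 (160 kb), which had -1.59 ± 0.30 after LmnC RNAi, against 0.57 ± 0.24 after LmnA RNAi and 0.31 ± 0.23 after LmnB1 RNAi.

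At the other end of this ranking, the signal did not set LmnC RNAi apart. In chr3:104882837-105000672 (118 kb) all maps had nearly one level, 1.49 ± 0.26 after LmnC RNAi, against 1.52 ± 0.23 after LmnA RNAi and 1.49 ± 0.23 after LmnB1 RNAi. In chr10:30133884-30242472 (109 kb) the signal was 0.82 ± 0.36 after LmnC RNAi, against 1.83 ± 0.29 after LmnA RNAi and 0.80 ± 0.30 after LmnB1 RNAi. Here LmnC and LmnB1 RNAi had nearly one value. The stretch chr9:99067605-99240612 (173 kb) had 1.24 ± 0.20 after LmnC RNAi, against 1.63 ± 0.24 after LmnA RNAi and 0.95 ± 0.23 after LmnB1 RNAi. In chr5:106877479-106984636 (107 kb) the values were 0.99 ± 0.33 after LmnC RNAi, against 1.81 ± 0.31 after LmnA RNAi and 0.58 ± 0.30 after LmnB1 RNAi. In chr9:20330941-20438836 (108 kb) they were -0.17 ± 0.28 after LmnC RNAi, against 1.05 ± 0.29 after LmnA RNAi and -0.36 ± 0.25 after LmnB1 RNAi. In 9 of the 409 members LmnC RNAi was not the lowest of the maps, and the deposited lists still separate it there.

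The size of the difference did not follow the length of the stretch, but its spread did. The 156 members of 50 to 100 kb had a median LmnC minus LmnA RNAi difference of -1.68 ± 0.73 (SD over stretches), and the 27 members of 400 kb or more had -1.70 ± 0.38. The median LmnC minus LmnB1 RNAi difference was -1.17 ± 0.56 in the shorter group and -1.27 ± 0.25 in the longer one. Longer stretches hold more fragments: the median SE of the LmnC minus LmnA RNAi difference was 0.19 at 400 kb or more and 0.50 at 50 to 100 kb. LmnC RNAi was lower than both maps by more than 0.5 in 82.7% of the members of 50 to 100 kb, 83.3% of those of 100 to 200 kb, 90.8% of those of 200 to 400 kb and 100% of those of 400 kb or more. The maps were not centred for these shares, and 43.5% of all autosomal 100 kb bins met the same step. The part of the low level of the whole LmnC RNAi map in the rise with length was not tested. Spearman's rho over the 409 members between length and difference was -0.02 for LmnC minus LmnA RNAi and 0.06 for LmnC minus LmnB1 RNAi, as a description.

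The length limit cut through a continuous range. Without it there were 1449 stretches with 82.9 Mb, or 6.07% of the 1366 Mb shared by the LADs of the LmnA and LmnB1 RNAi maps. The 1040 stretches under 50 kb held 14.4 Mb of this. The member just inside the limit, chr1:169559132-169609274 (50.1 kb), had -2.05 ± 0.53 after LmnC RNAi, against -1.29 ± 0.41 after LmnA RNAi and -0.16 ± 0.40 after LmnB1 RNAi. The stretch just outside it, chr2:62111943-62161888 (49.9 kb), had -0.40 after LmnC RNAi, against 1.26 after LmnA RNAi and 0.85 after LmnB1 RNAi. At this length single stretches are imprecise, and LmnC RNAi was the lowest on both sides of the limit. The member with the fewest fragments, chr18:22034417-22089408 (55.0 kb, 110 fragments), had -0.89 ± 0.35 after LmnC RNAi, against 1.13 ± 0.37 after LmnA RNAi and 0.34 ± 0.35 after LmnB1 RNAi.

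The reads behind the ratios can be followed through the fragments read in 1 library only. In the members, fusion-only fragments were 8.78% of fragments after LmnC RNAi, against 16.4% after LmnA RNAi and 12.9% after LmnB1 RNAi. Dam-only fragments were 13.0% after LmnC RNAi, against 6.51% after LmnA RNAi and 8.65% after LmnB1 RNAi. Dam-only fragments thus outnumbered fusion-only fragments in the LmnC RNAi map alone. Over chromosomes 1 to 19 the fusion-only shares were 12.9% after LmnC RNAi, 16.8% after LmnA RNAi and 14.0% after LmnB1 RNAi, and the Dam-only shares 12.1%, 8.34% and 10.3%. The LmnC RNAi libraries thus leaned to fusion-only fragments less than the others over the autosomes as well, and the part of this in the difference within the members was not tested. The shares and read numbers given here and below are not corrected for the total reads of each library, which are unknown. Their differences between maps therefore cannot separate the balance of the libraries from lamina signal.

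A count that does not weigh the extreme values gave the same order. Of the fragments with different read numbers in the libraries of a map, those with more fusion than Dam-only reads made up 33.0% in the members after LmnC RNAi, against 69.3% after LmnA RNAi and 54.5% after LmnB1 RNAi. Over the autosomes the shares were 47.5% after LmnC RNAi, 64.4% after LmnA RNAi and 56.0% after LmnB1 RNAi. Relative to its own autosomes, the share in the members was lower by 14.5 percentage points after LmnC RNAi, higher by 4.89 after LmnA RNAi and lower by 1.43 after LmnB1 RNAi. Single-library fragments of the members held 24845 fusion and 57986 Dam-only reads after LmnC RNAi, against 62020 and 20341 after LmnA RNAi and 39644 and 31639 after LmnB1 RNAi.

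One property that no read enters is the density of GATC sites. The median member had 24.4 GATC fragments per 10 kb, against 24.9 in all autosomal 100 kb bins, 25.5 in stretches in LADs of all maps and 23.9 in stretches in no LAD. The median fragment length was 270 bp in the members, against 253 bp in stretches in LADs of all maps and 285 bp in stretches in no LAD. On this measure too the members stood between LAD and inter-LAD sequence. Stretches missing only after LmnB1 RNAi had 24.5 fragments per 10 kb and those missing only after LmnA RNAi 24.6, so the density did not set the members apart from the mirrored classes.

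The members were spread over all 19 autosomes with unequal shares. They held 4.97% ± 1.92 (SD over 19 chromosomes) of the LAD sequence shared by the LmnA and LmnB1 RNAi maps. The share was highest on chromosome 15 (8.19%, 19 members), chromosome 5 (7.99%, 34 members) and chromosome 10 (7.72%, 27 members). It was lowest on chromosome 7, which had 5 members with 0.506 Mb (0.611%). On that chromosome 26 stretches with 3.63% of the corresponding shared LAD sequence were missing only after LmnB1 RNAi, within the range of the other chromosomes (2.89 to 5.65%).

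Chromosome 7 also stood apart in the overall level of the maps. Its median LmnC minus LmnA RNAi difference over all 100 kb bins was -0.79, the least negative of the 19 chromosomes, whose mean was -0.94 ± 0.07 (SD). Its median LmnC minus LmnB1 RNAi difference was -0.32, also the least negative, against a mean of -0.51 ± 0.07. The LmnC RNAi signal was thus less low along chromosome 7 in general. The part of this in the small number of members was not tested.

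**Figure D5:**
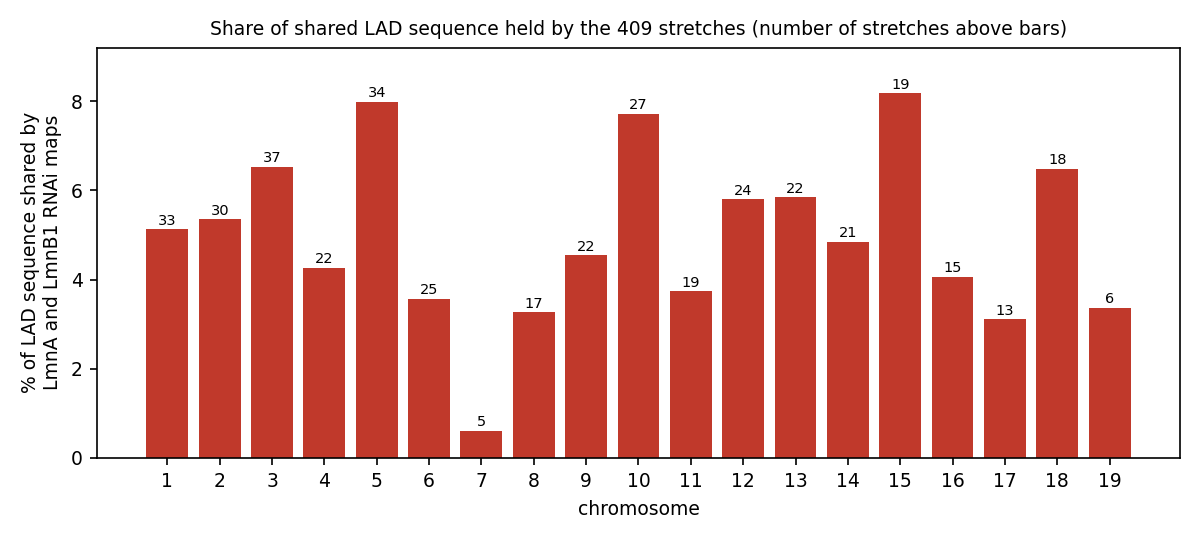
Share of the LAD sequence common to the LmnA and LmnB1 RNAi maps that the members hold, in percent (vertical axis), on each of chromosomes 1 to 19 (horizontal axis), with the number of members above each bar. Chromosome 15 has the highest share (8.19%) and chromosome 7 the lowest (0.611%).

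The bars by chromosome differ more than the differences in signal did. The median LmnC minus LmnA RNAi difference of the members ranged over chromosomes from -1.94 to -1.36, and the LmnC minus LmnB1 RNAi difference from -1.51 to -0.60. Along the chromosomes, the 5 equal parts from the lower to the higher coordinates held 86, 91, 76, 83 and 73 members, and 4.64, 5.62, 4.59, 4.99 and 5.28% of the shared LAD sequence. No part of the chromosomes held most of them. Neighbouring members were a median of 3142 kb apart, and 69 of 390 neighbouring pairs lay within 500 kb of each other.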

How the data were processed

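The deposited values are on a log2 scale, 1 per GATC fragment of mm9, made by the authors from reads aligned with Bowtie, per the submitters' processing notes. How reads were filtered, how ratios were formed and which program called LADs is not given in the sources used here. From its steps, each value is the log2 ratio of fusion and Dam-only reads after adding 1e-05, shifted by a constant per map, and 100% of recovered read numbers up to 100 were whole within 0.02. LAD starts and ends, in bp, are the other deposited values.

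Members and lists were chosen with earlier results of these data known. Fragments were assigned by their middle and averaged with their length as weight, over stretches and over 23944 autosomal 100 kb bins covered by fragments over at least 50%. Ranks are percentiles among these bins. Fragments with a value beyond 12 in either direction were read as having 0 reads in 1 library. An end counted as touching a LmnC RNAi LAD when it was the border itself.

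The stretches named were the 8 longest, the 5 of at least 200 fragments with the largest and the 5 with the smallest of the smaller deficit, the longest of each position, and those beside the limits. Scripts ran in Python 3.11.15 with numpy 2.4.6, pandas 2.3.3 and matplotlib 3.10.9 and were tested on simulated data. No test was run, because each group has 1 library and the rule used the compared maps. Gene content and sequence of the stretches were not analysed here, for want of an mm9 genome and annotation.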

Additional observations from a re-analysis of the deposited data

How the results depend on the processing

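Of 73 alternatives over 9 results, 55 stayed within the spread used here (1 SD of the chromosome medians, or 1.5 times a count), 18 did not and 0 changed direction. A limit of 100 fragments could change no result, because every member has at least 110. Only the signal and rank differences could change direction, since counts, lengths and densities have no sign. With a shortest length of 100 kb there were 253 members, of which 221 were lower after LmnC RNAi than in both other maps by more than 0.5 and 146 adjoined a LmnC RNAi LAD. The median LmnC minus LmnA RNAi difference was -0.55 without fragments at 0 reads in 1 library, -1.91 without fragments at the constant, -2.61 with fragments weighted equally, -0.50 with maps centred and -0.37 with maps quantile normalized. The LmnC minus LmnB1 RNAi difference was -0.31 without fragments at 0 reads in 1 library, -1.52 weighted equally, -0.59 centred and -0.48 quantile normalized. The count of members lower than both was 49 without fragments at 0 reads in 1 library, 146 centred, 111 quantile normalized and 213 at a step of 1. In percentile ranks, LmnC minus LmnA RNAi was -4.36 over the members, -6.92 weighted equally and -2.29 without fragments at 0 reads in 1 library. LmnC minus LmnB1 RNAi was -5.72 over the members, -2.56 without these fragments and -7.44 weighted equally. The cause was not tested. Without replicates, the spread between cell populations is unknown. No paired analysis was possible because each group has 1 library of each kind.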
